A study of Mus musculus with 18 samples.

Results

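The Slc25 genes encode the mitochondrial carrier family, and 36 of them were described here in the tibialis anterior of mice, a muscle at the front of the lower leg. Members were the protein-coding genes whose symbol starts with Slc25a and whose normalized count averaged at least 10 over the 18 libraries. Slc25a20 was left out. The table holds 44 protein-coding Slc25a genes of the 47 in the GENCODE M21 annotation, and 7 of the 44 averaged under the minimum. Just inside it was Slc25a45 with a mean of 11.9, and just outside Slc25a14 with 7.20. The members are thus 36 of 12262 genes that reached that mean and of 20922 genes in the table.

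Total RNA was sequenced from muscle taken 36 days after the femoral artery of 1 hindlimb was ligated, a model of peripheral artery disease, so each mouse has a ligated and an intact limb. Control mice (WT) and mice in which doxycycline had induced the loss of Bmal1, a gene of the circadian clock, from skeletal muscle (BKO) gave 5 libraries of intact muscle and 4 of ligated muscle per genotype. All 4 groups carry floxed Bmal1 alleles (Bmal1 fx/fx) on a cross with the ACTA-rtTA-TRE-Cre transgene, and doxycycline was given by mouth before surgery. In this system the ACTA promoter drives the doxycycline-dependent activator, so deletion is directed at muscle fibres and Bmal1 in other cells of the muscle is not targeted. The labels list the Cre genotype as +/+ for controls and -/- for knockouts, the reverse of what the names imply, so each genotype direction rests on the group names. Age, sex and the time of day of collection were not given in the sources used here.

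Mitochondrial carriers are small proteins that cross the inner mitochondrial membrane and exchange or import solutes that cannot pass it unaided. They bring ADP and phosphate in for ATP synthesis and let ATP out, move reducing equivalents through the malate-aspartate shuttle, and import cofactors, nucleotides, amino acids and iron. In skeletal muscle, where ATP demand swings widely, the ADP/ATP carrier is one of the most abundant mitochondrial proteins.

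The libraries held 14.1 to 25.6 M (mega) reads assigned to genes. The mitochondrial ribosomal RNA mt-Rnr2 took 31.9% to 34.3% of reads in WT intact, 38.1% to 45.3% in WT ligated, 33.6% to 36.1% in BKO intact and 40.9% to 55.5% in BKO ligated libraries, and BKO ligated libraries 4 and 5 were above 50%. The Bmal1 gene (Arntl) was at 41.3 to 68.4 normalized counts in WT intact and 42.4 to 61.1 in BKO intact libraries, and at 12.2 to 18.3 in WT ligated and 63.8 to 81.95 in BKO ligated libraries. A gene total does not check the loss of an exon, so these values do not test the labels. Nr1d2, a clock gene activated by BMAL1, averaged 1675 and 1592 in WT intact and ligated libraries and 524 and 508 in BKO. All 10 myofibre markers, among them the muscle actin Acta1 and the fast myosin Myh4, were measured, and they summed to 948281 to 1523229 normalized counts per library.

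The levels of the members spanned several orders of magnitude, as the plot of levels per kb of exon shows. Per kb of exon, averaged over the 18 libraries, Slc25a4 stood at 9009 normalized counts. Slc25a11 followed at 688, Slc25a3 at 599, Slc25a12 at 578 and Slc25a5 at 135, and Slc25a53 was lowest at 1.911. Slc25a4, the muscle ADP/ATP carrier ANT1, made up 72.1% to 78.2% of the summed per-kb level of the 36 members, with a median of 76.0%. The order of Slc25a11, Slc25a3 and Slc25a12 differed between groups, and their group means per kb lay between 503 (Slc25a3, WT intact) and 835 (Slc25a11, BKO intact). Length is the union of all annotated exons, such as 5550 bases for Slc25a3 and 2120 for Slc25a11, not that of the transcripts present. Ranks and shares per kb, also those of isoform pairs below, depend on it. By mean normalized count Slc25a12 was at 4243, Slc25a3 at 3324 and Slc25a11 at 1458.

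**Figure D1:**
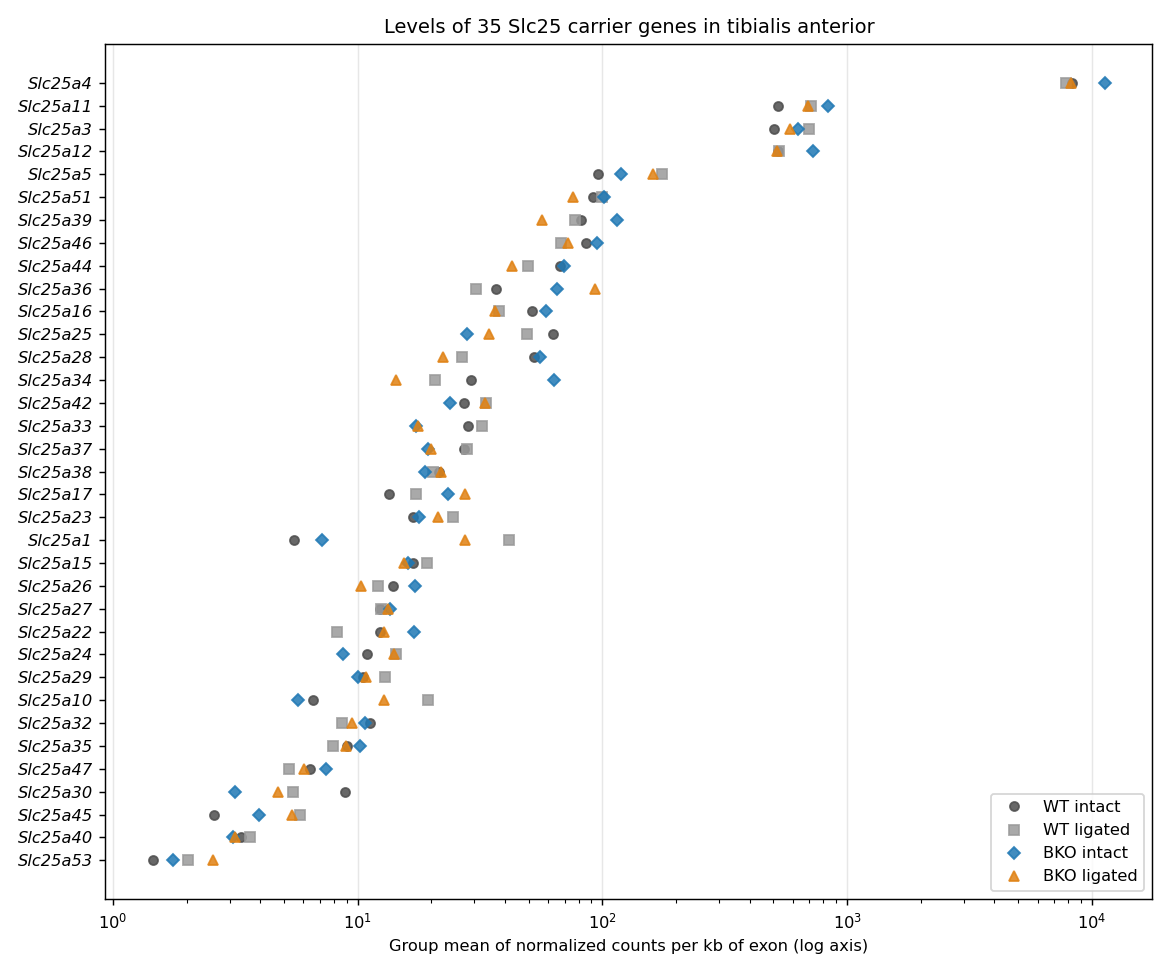
Group mean of normalized counts per kb of exon (log axis) for 35 of the 36 Slc25 members, 1 marker per group. Slc25a4 stands apart at 7811 to 11302 per kb, and Slc25a11 follows at 522 to 835.

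Ligation in WT mice called 13 of the 36 members (36.1%), 7 higher and 6 lower, at an adjusted p under 0.05 over all 12262 genes tested. Of all genes, 39.8% were called (18.7% higher, 21.1% lower), so the share among members is near the background. The median log2 fold change was 0.02 over the members and -0.003 over all genes. The citrate carrier Slc25a1 and the dicarboxylate carrier Slc25a10 rose furthest, and the mitoferrin Slc25a28 fell furthest. In bulk muscle, fewer cells of a type and less RNA per cell cannot be told apart. When values were scaled to reads of genes not encoded by mitochondrial DNA, the median of all genes moved to 0.27 and the members' split became 13 higher and 1 lower. The WT falls of Slc25a16, Slc25a44, Slc25a46, Slc25a36 and Slc25a30 did not pass under that scaling. The values of 11 of the 13 called members did not overlap between the groups. These members were already selected by adjusted p, and the share over all genes was not computed, so the count adds no separate support.

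Ligation in BKO mice called 18 of the 36 members, 7 higher and 11 lower, against 47.2% of all genes (22.1% higher, 25.1% lower), a share again near the background. Slc25a34, Slc25a28 and Slc25a39 fell furthest, and Slc25a1 and Slc25a10 rose furthest. The median over the members was -0.05. The groups did not overlap for 12 of the 18, a count again without a share over all genes. Without BKO ligated libraries 4 and 5, those above 50% mt-Rnr2, the count was 10, 1 higher and 9 lower, and Slc25a36, Slc25a42, Slc25a24, Slc25a1, Slc25a10, Slc25a30, Slc25a46 and Slc25a51 no longer passed. That fit has fewer libraries and its share over all genes is not given, so the lower count is not a result about the members.

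In intact muscle, 13 members differed between BKO and WT (36.1%), 9 higher and 4 lower in BKO, where 18.3% of all genes did (8.56% higher, 9.75% lower). Higher in BKO were the ADP/ATP carrier Slc25a4, the phosphate carrier Slc25a3 and both members of the malate-aspartate shuttle, and, among others, Slc25a36, Slc25a17, Slc25a39 and Slc25a34. Lower were Slc25a30, Slc25a25, Slc25a33 and Slc25a37. The median was 0.17 over the members and 0 over all genes, and 24 of the 36 estimates were above 0. The groups did not overlap for 8 of the 13, again without a share over all genes.

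In ligated muscle, 4 members differed between BKO and WT (11.1%), against 8.84% of all genes (4.16% higher, 4.68% lower), which is near the background. Slc25a36 and Slc25a17 were higher in BKO, and Slc25a33 and Slc25a51 were lower. All 4 were without overlap, a count given without the share over all genes. The median was -0.10 over the members and -0.02 over all genes. Without BKO ligated libraries 4 and 5 the count was 2 (Slc25a36 and Slc25a17), and it was also 2 without WT ligated library 5 or without BKO ligated library 4. Those fits have fewer libraries, and their shares over all genes are not given.

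The interaction, which is the BKO ligation effect less the WT one, was called for 8 members (22.2%), 2 higher and 6 lower, against 6.01% of all genes (3.04% higher, 2.97% lower). The median was -0.20 over the members and -0.01 over all genes. Slc25a3, Slc25a11, Slc25a12, Slc25a34, Slc25a39 and Slc25a51 had lower values, and Slc25a36 and Slc25a30 higher ones. Without BKO ligated libraries 4 and 5, limma called none, with 11 members at an unadjusted p under 0.05 and a lowest adjusted p of 0.0542. The count was 5 without WT ligated library 5 and 5 without BKO ligated library 4. Those fits have fewer libraries and their shares over all genes are not given, so the lower counts are not results about the members. The 5 comparisons share libraries, so their values are given side by side. In at least 1 of the 5, 26 of the 36 members (72.2%) and 63.4% of all genes were called. The 10 members called in none had group means of 11.6 to 108 normalized counts. Their log2 values ran from -0.53 (Slc25a22, ligation in WT) to 0.61 (Slc25a22, BKO against WT in ligated muscle), and their lowest adjusted p was 0.0574.

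**Figure D2:**
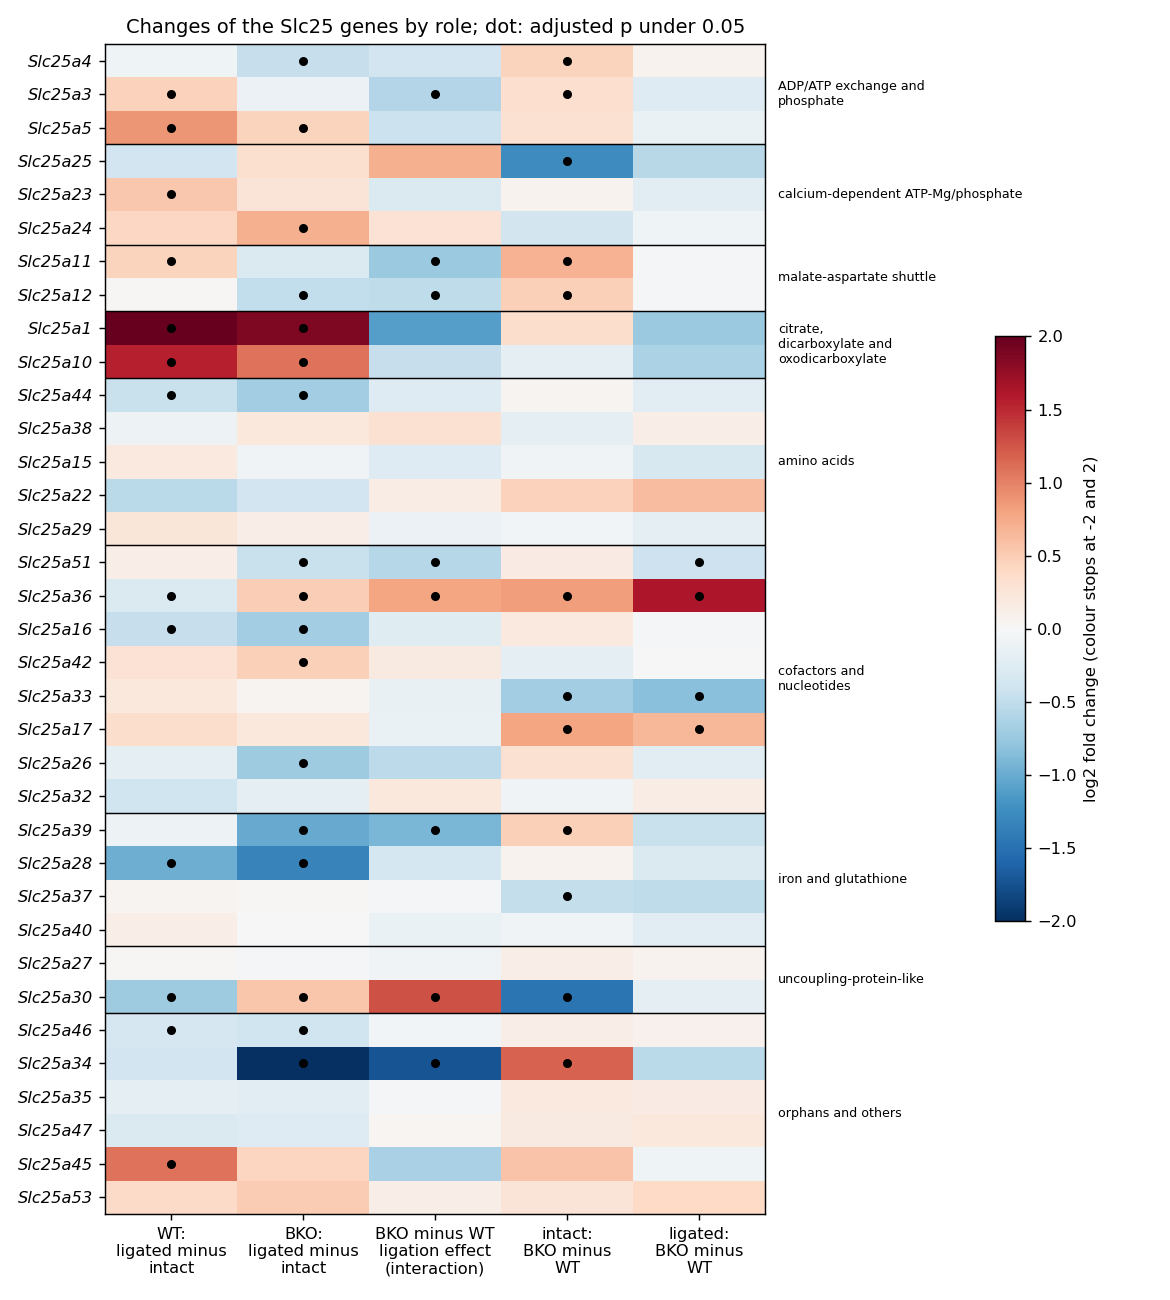
Log2 fold change of 35 of the 36 Slc25 members in each of the 5 comparisons, on the log2(normalized count + 1) scale, with the called values marked. For the interaction 2 members were called higher and 6 lower, and in ligated muscle 2 were higher and 2 lower in BKO.

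Among the carriers that feed ATP synthase, Slc25a4 (ENSMUSG00000031633, chromosome 8, 46206797 to 46211284, GRCm38) exchanges ADP for ATP and is the main muscle form. Its normalized counts were 19081, 17296, 18335, 20744 and 22546 in WT intact libraries and 25099, 26739.6, 27522, 27738 and 25867 in BKO intact libraries. The intact groups did not overlap, and Slc25a4 was 1.36-fold higher in BKO (log2 0.45 ± 0.08 SE, adjusted p = 0.000267). In ligated muscle the values were 18221, 16583, 19046 and 19666 in WT and 18871, 17369.7, 19929.5 and 20927 in BKO, which overlapped (log2 0.07 ± 0.08, adjusted p = 0.695). Ligation lowered Slc25a4 in BKO (log2 -0.47 ± 0.08, adjusted p = 8.17e-05), with no overlap between ligated and intact libraries. In WT the ligation value was -0.09 ± 0.08, with a 95% interval of -0.26 to 0.08, and did not pass. The interaction was -0.38 ± 0.11 with an adjusted p of 0.0529 and did not pass, so the ligation effects were not shown to differ.

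Slc25a3 (chromosome 10, 91116574 to 91124059) imports the phosphate that ATP synthase uses. It stood at 2909, 2446, 2597, 2827 and 3181 normalized counts in WT intact and 3757, 3374, 4212 and 4098 in WT ligated libraries. Ligated libraries were all higher in WT (log2 0.47 ± 0.09, adjusted p = 0.00043). BKO values were 3238, 3519.6, 3695, 3658 and 3395 in intact and 3458, 2613, 3378 and 3478 in ligated libraries, and that ligation value of -0.12 ± 0.09 did not pass. BKO ligated library 4 lay below the other BKO ligated libraries. In intact muscle Slc25a3 was higher in BKO without overlap (log2 0.33 ± 0.09, adjusted p = 0.011). The interaction was called (log2 -0.59 ± 0.13, adjusted p = 0.013), and its adjusted p was 0.0542 without BKO ligated libraries 4 and 5.

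Slc25a5 (chromosome X, 36795651 to 36798807), the ADP/ATP carrier ANT2 that prevails in dividing and non-muscle cells, was higher after ligation in both genotypes. Its counts were 149.7, 124, 197, 161 and 161 in WT intact and 297, 320.0, 259 and 282 in WT ligated libraries (log2 0.88 ± 0.12, adjusted p = 9.01e-06). In BKO they were 199, 164, 236, 180.0 and 197 in intact and 274, 243, 290.1 and 254 in ligated libraries (log2 0.45 ± 0.12, adjusted p = 0.00496). Ligated and intact libraries did not overlap in either genotype. A pseudogene, Slc25a5-ps, is annotated, and how reads were split between near-identical copies is uncertain.

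The share of Slc25a5 in the summed per-kb level of Slc25a4 and Slc25a5 was 1.15% ± 0.209 (SD, n = 5) for WT intact muscle and 2.22% ± 0.347 (SD, n = 4) for WT ligated muscle. For BKO it was 1.04% ± 0.142 (SD, n = 5) in the intact limb, against 1.93% ± 0.158 (SD, n = 4) in the ligated limb. Every ligated library lay above every intact library of its genotype, with intact values up to 1.51% and ligated values from 1.70%.

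Fibroblast and endothelial markers were also higher in ligated muscle of both genotypes, and the part of other cells in the ligation results was not tested. Fibroblast markers summed to 6209 to 8057 normalized counts in WT intact and 16656 to 20123 in WT ligated libraries, and to 5699 to 6908 and 12251 to 19721 in BKO; 5 of 6 rose in WT and 4 of 6 in BKO. Endothelial markers summed to 1966 to 2444 in intact and 2963 to 3913 in ligated WT libraries, and to 2042 to 2599 and 3362 to 4485 in BKO, with 4 of 6 and 5 of 6 called higher. Both lists thus did not overlap between intact and ligated limbs. The myofibre sum was 1286729 to 1523229 in WT intact and 948281 to 1101656 in WT ligated libraries, and 1228710 to 1454117 and 1075822 to 1187321 in BKO; 5 of 10 markers fell in WT and 6 of 10 in BKO, where 1 rose. Macrophage markers summed to 398 to 589 in WT intact and 589 to 750 in WT ligated libraries, and to 288 to 497 and 333 to 545 in BKO; 4 of 8 rose and 1 fell in WT, and 1 fell in BKO. Slow fibre markers summed to 393 to 895 in intact and 645 to 1061 in ligated WT libraries, and to 359 to 941 and 965 to 1809 in BKO, with 1 of 7 and 2 of 7 called higher. None of these markers was at 0 in all libraries. Of all genes, ligation called 18.7% higher and 21.1% lower in WT, and 22.1% higher and 25.1% lower in BKO.

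**Figure D3:**
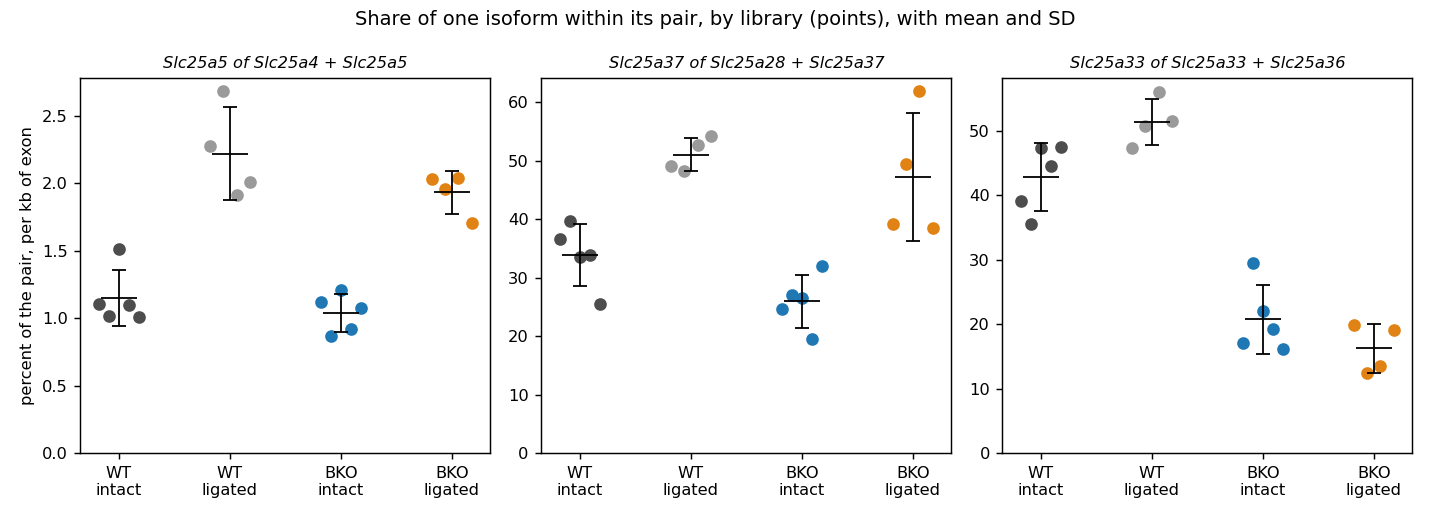
Share of 1 isoform in its pair, from counts per kb of exon, in each library (points) with the group mean and SD. The Slc25a5 share is 1.70% or more in the ligated libraries, and the Slc25a33 share of the Slc25a33 and Slc25a36 pair is 12.5% to 29.5% in BKO and 35.6% to 56.0% in WT libraries.

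The calcium-dependent ATP-Mg/phosphate carriers set the size of the adenine nucleotide pool in the matrix. Slc25a25 was at 551, 325, 678, 494 and 433 normalized counts in WT intact and 135, 154, 163, 426 and 220.4 in BKO intact libraries. It was lower in BKO, and BKO intact library 4 lay within the WT range (log2 -1.26 ± 0.30, adjusted p = 0.00525). In ligated libraries it was at 312, 551, 434 and 252 in WT and 209.9, 141, 348 and 382 in BKO, which overlapped (log2 -0.56 ± 0.34, adjusted p = 0.345). Its exons overlap those of Naif1, and whether the counting used strand is not stated. Slc25a23 rose with ligation in WT, from a mean of 89.3 (range 72.3 to 118) to a mean of 129.8 (range 107 to 146) (log2 0.54 ± 0.17, adjusted p = 0.0164), and the ranges overlapped. That call ended without WT ligated library 4 or 5, at adjusted p of 0.0547 and 0.0532. Slc25a24 rose with ligation in BKO, from a mean of 29.8 (range 18.7 to 42.4) to a mean of 48.3 (range 28.98 to 58.2) (log2 0.71 ± 0.24, adjusted p = 0.0215), with overlap. This call ended when any 1 of 5 libraries (BKO intact 1 and 3, BKO ligated 4, 5 and 6) was left out, with adjusted p of 0.0572 to 0.0748.

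The malate-aspartate shuttle carries reducing equivalents from glycolysis into mitochondria through 2 carriers measured here, Slc25a11 (oxoglutarate/malate) and Slc25a12 (aspartate/glutamate, AGC1). Both were higher in intact BKO muscle. Slc25a11 (chromosome 11, 70644196 to 70647479) had 1195, 827, 1000.2, 1275 and 1237 normalized counts in WT intact and 1728, 1763, 1888, 1880.4 and 1587 in BKO intact libraries, without overlap (log2 0.69 ± 0.11, adjusted p = 0.000138). Slc25a12 (chromosome 2, 71271063 to 71367749) had 4066, 3269, 3407, 4149 and 4245 in WT intact and 5250.0, 5426, 5397, 5735 and 4836 in BKO intact libraries, also without overlap (log2 0.48 ± 0.09, adjusted p = 0.000451).

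The ligation values of the shuttle carriers differed between the genotypes. Slc25a11 was at 1525, 1319, 1709 and 1458 in WT ligated libraries, above all WT intact ones (log2 0.45 ± 0.12, adjusted p = 0.00426), and at 1643, 1187, 1469 and 1551 in BKO ligated libraries (log2 -0.28 ± 0.12, adjusted p = 0.0539, not passed). Slc25a12 was at 3938, 3257, 3972 and 4318 in WT ligated libraries (log2 0.02 ± 0.09, not passed) and at 3819, 3371, 3834 and 4084 in BKO ligated libraries, below all BKO intact ones (log2 -0.50 ± 0.09, adjusted p = 0.000166). The interaction was called for Slc25a11 (log2 -0.74 ± 0.17, adjusted p = 0.0139) and for Slc25a12 (log2 -0.52 ± 0.13, adjusted p = 0.0231). Without BKO ligated libraries 4 and 5 the adjusted p were 0.0827 and 0.11, and the Slc25a12 call also ended without any 1 of WT ligated 2, WT ligated 6 or BKO ligated 4 (0.0519 to 0.0539). Exons of Slc25a11 overlap Rnf167 on the opposite strand. The other aspartate/glutamate carrier, Slc25a13, averaged under the minimum.

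The enzymes of the malate-aspartate shuttle (Got1, Got2, Mdh1 and Mdh2) were listed with those of the glycerophosphate shuttle (Gpd1 and Gpd2), another route for reducing equivalents. In intact muscle 8.56% of all genes were higher in BKO and 9.75% lower. Of the 6 genes, 3 were higher in BKO intact muscle and none lower. They were Got1 (log2 0.63 ± 0.14, adjusted p = 0.00249), Got2 (0.55 ± 0.11, adjusted p = 0.00102) and Mdh1 (0.54 ± 0.11, adjusted p = 0.00145), which make and use aspartate, oxaloacetate and malate. The interaction was called lower for the same 3 genes, at -0.75 ± 0.20, -0.56 ± 0.16 and -0.60 ± 0.17. It was called lower for 2.97% of all genes. With ligation in WT, Mdh2 rose (log2 0.49 ± 0.08, adjusted p = 8.94e-05), and the 2 that fell were the glycerophosphate enzymes Gpd1 (-0.21 ± 0.08, adjusted p = 0.034) and Gpd2 (-0.65 ± 0.09, adjusted p = 8.66e-06). In BKO, Mdh2 rose and the other 5 fell. Mdh2 was also higher in BKO than in WT ligated muscle (log2 0.34 ± 0.09, adjusted p = 0.0176).

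The citrate carrier Slc25a1 exports citrate, the precursor of cytosolic acetyl-CoA for fat synthesis, and Slc25a10 exchanges dicarboxylates for phosphate. Both averaged under 50 normalized counts, below the mean set for named members, and were picked after their values were seen. Slc25a1 (chromosome 16, 17925223 to 17928219) was at 23.2, 5.92, 13.8, 11.6 and 5.02 in WT intact and 118, 84.1, 95.8 and 60.9 in WT ligated libraries. All WT ligated libraries were higher, and the values rest on 54 reads over the WT intact and 392 over the WT ligated libraries (log2 2.96 ± 0.47, adjusted p = 4.15e-05). In BKO it was at 16.9, 25.3, 3.94, 14.2 and 16.96 in intact and 65.96, 107, 41.9 and 23.9 in ligated libraries (log2 1.86 ± 0.47, adjusted p = 0.00269). There 1 ligated library lay within the intact range, and the adjusted p was 0.0528 without BKO ligated libraries 4 and 5. Slc25a10 was at 23.2, 14.2, 16.8, 25.04 and 34.1 in WT intact and, without overlap, at 76.96, 61.02, 80.97 and 47.8 in WT ligated libraries (log2 1.55 ± 0.30, adjusted p = 0.000323). Its BKO values were 23.1, 20.02, 10.8, 20.9 and 23.7 in intact and 50.97, 55.2, 50.05 and 21.3 in ligated libraries, with 1 ligated library inside the intact range (log2 1.09 ± 0.30, adjusted p = 0.00515). The difference was 0.76 with an adjusted p of 0.126 without BKO ligated libraries 4 and 5. Slc25a10 exons overlap Gm11788. Adipocyte markers moved with these genes: 10 of 10 rose with ligation in WT and 9 of 10 in BKO. They summed to 2542 to 3286 normalized counts in WT intact, 8154 to 11390 in WT ligated, 2722 to 3300 in BKO intact and 4277 to 8548 in BKO ligated libraries. The markers Plin4 and Fabp4, with means of 2093 and 729 in WT intact libraries, made up most of the intact sums. The median log2 fold change of the 10 markers with ligation was 4.34 in WT and 3.73 in BKO. Of all genes, ligation called 18.7% higher in WT and 22.1% higher in BKO. The part of adipocytes in the rise of Slc25a1 and Slc25a10 was not tested.

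The start-site regions of the members were searched for 2 motifs, since the groups differ in a clock transcription factor. The E-box CACGTG, the letters BMAL1 and its partner bind, and AAGGTCA, a half-site bound by estrogen-related receptors and other nuclear receptors, were looked for on both strands from 250 bases before to 50 after the start. The RefSeq table (GRCm38.p6) matched 27 of the 36 members. The E-box was in 4 of the 27 (14.8%), Slc25a1, Slc25a15, Slc25a33 and Slc25a36, and in 7.15% of 32851 promoters, or 8.09% of genes. AAGGTCA was in 1 of the 27 (3.7%), Slc25a34, and in 4.72% of promoters, or 5.38% of genes. The lines that follow give the stretches for Slc25a36, Slc25a1 and Slc25a34, on the gene strand 5′ to 3′, with the match in capitals. A match describes the letters and does not show binding.
Slc25a36: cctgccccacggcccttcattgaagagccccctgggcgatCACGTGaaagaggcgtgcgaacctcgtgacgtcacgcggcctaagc
Slc25a1: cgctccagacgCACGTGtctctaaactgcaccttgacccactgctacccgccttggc
Slc25a34: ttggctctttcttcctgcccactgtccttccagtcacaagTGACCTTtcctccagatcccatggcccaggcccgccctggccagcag
All 3 genes lie on the minus strand, at chr9:97111183-97111268, chr16:17928413-17928469 and chr4:141623907-141623993. Their matches start 187, 239 and 119 bases before the start site. In Slc25a34 the half-site is on the opposite strand, so it reads TGACCTT here. In Slc25a33, which was lower in BKO in both limbs, the E-box is 8 bases before the start, and its stretch is not printed because it overlaps an annotated exon. In Slc25a15, called in none of the comparisons, it is 77 bases before.

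Among the 5 amino acid carriers, only Slc25a44, which imports branched-chain amino acids, was called. It fell with ligation in WT, from 241, 216, 260.2, 252 and 226 in intact to 202, 145, 182 and 179 normalized counts in ligated libraries (log2 -0.44 ± 0.11, adjusted p = 0.00397), and in BKO from 278, 258, 252, 239 and 214 to 173, 142, 129 and 167 (log2 -0.70 ± 0.11, adjusted p = 3.97e-05). Neither pair of groups overlapped. The WT fall of Slc25a44 did not pass under scaling to reads of genes not encoded by mitochondrial DNA. Slc25a38, Slc25a15, Slc25a22 and Slc25a29, which carry glycine, ornithine, glutamate and basic amino acids, were called in none of the 5 comparisons.

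The largest role group carries cofactors and nucleotides. Slc25a36 (ENSMUSG00000032449, chromosome 9, 97074961 to 97111157), which takes pyrimidine nucleotides into mitochondria, was higher in BKO in both limbs. Intact libraries had 368, 327, 335, 348 and 388 normalized counts in WT and 702, 589.9, 599.6, 644 and 605 in BKO, without overlap (log2 0.83 ± 0.11, adjusted p = 1.2e-05). Ligated libraries had 331, 247, 251 and 338 in WT and 738, 1006, 1023 and 801 in BKO, a 3.06-fold difference without overlap (log2 1.61 ± 0.12, adjusted p = 9.3e-09). Ligation raised Slc25a36 in BKO (log2 0.49 ± 0.11, adjusted p = 0.00123) and lowered it in WT (log2 -0.29 ± 0.11, adjusted p = 0.0469), where the groups overlapped. The BKO call ended without BKO ligated libraries 4 and 5. The WT call ended when any 1 of 10 libraries was left out (WT intact 2, 4, 5 and 6, WT ligated 4 and 5, BKO intact 2, 3, 4 and 5), with adjusted p of 0.0524 to 0.166, and ended under scaling to reads of genes not encoded by mitochondrial DNA. The interaction was 0.78 ± 0.16 (adjusted p = 0.00807), and its adjusted p was 0.0616 without BKO ligated libraries 4 and 5.

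Slc25a33, which carries the same kind of nucleotides, had lower values in BKO. Its counts were 46.5, 35.5, 59.1, 54.9 and 69.2 in WT intact and 28.5, 48.5, 33.5, 30.1 and 22.9 in BKO intact libraries, which overlapped (log2 -0.69 ± 0.20, adjusted p = 0.0169). In ligated libraries they were 58.3, 50.2, 62.7 and 70.8 in WT and 35.98, 28.2, 31.7 and 37.2 in BKO, without overlap (log2 -0.84 ± 0.22, adjusted p = 0.0181). The intact call ended without WT intact library 6 (0.0507), and the ligated call without any 1 of WT ligated 5, WT ligated 6 or BKO ligated 4 (0.0516 to 0.0602). The Slc25a33 share of the per-kb sum of Slc25a33 and Slc25a36 was 42.8% ± 5.27 (SD, n = 5) for WT intact muscle and 51.4% ± 3.56 (SD, n = 4) for WT ligated muscle. For BKO it was 20.8% ± 5.36 (SD, n = 5) in the intact limb, against 16.3% ± 3.77 (SD, n = 4) in the ligated limb, with no overlap between WT and BKO libraries. Exons of Slc25a33 overlap Gm13068.

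Slc25a17 (chromosome 15, 81318911 to 81360812) is the family's peroxisomal member and carries CoA, FAD and NAD. It was higher in BKO in both limbs, at 34.8, 41.5, 37.4, 45.3 and 32.1 in WT intact against 64.9, 67.4, 66.9, 74.5 and 59.4 in BKO intact libraries (log2 0.79 ± 0.14, adjusted p = 0.000305). In ligated muscle it was at 51.8, 40.7, 46.1 and 57.6 in WT and 89.9, 69.9, 83.8 and 68.3 in BKO (log2 0.66 ± 0.15, adjusted p = 0.00795). Neither pair of groups overlapped.

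Slc25a51, which imports NAD, fell with ligation in BKO from a mean of 560.1 (range 531 to 610.4) to a mean of 416 (range 332 to 483) (log2 -0.44 ± 0.12, adjusted p = 0.00349) and was lower in BKO than in WT ligated muscle (log2 -0.41 ± 0.12, adjusted p = 0.038; 487 to 649 in WT). The call for ligation in BKO ended without BKO ligated libraries 4 and 5. The ligated call ended without any 1 of WT ligated 5 and 6 and BKO ligated 4 and 5 (0.0732 to 0.146), and the interaction (log2 -0.57 ± 0.16, adjusted p = 0.0414) held only when the library left out was WT intact 3 or 6, WT ligated 2 or 4, BKO intact 5, or BKO ligated 2 or 6 (0.0528 to 0.0965 without 1 of the other 11).

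Slc25a16, a carrier linked to coenzyme A, fell with ligation in both genotypes, from a mean of 247 (range 232 to 286) to a mean of 181 (range 145 to 209.8) in WT (log2 -0.46 ± 0.11, adjusted p = 0.00173) and from a mean of 282 (range 266 to 289) to a mean of 174 (range 159.5 to 194) in BKO (log2 -0.70 ± 0.11, adjusted p = 1.99e-05), without overlap. Slc25a26, which imports S-adenosylmethionine, fell in BKO, from a mean of 82.2 (range 59.6 to 96.9) to a mean of 49.7 (range 45.96 to 59.97) (log2 -0.71 ± 0.17, adjusted p = 0.0019), with 1 ligated library inside the intact range. Slc25a42, which carries coenzyme A and ADP, rose in BKO, from a mean of 143 (range 119 to 176) to a mean of 199 (range 162 to 241) (log2 0.47 ± 0.13, adjusted p = 0.00529), with overlap. Slc25a32 was called in none of the comparisons.

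Iron and glutathione carriers come as a pair of mitoferrins and a pair of glutathione importers. Slc25a28 (chromosome 19, 43663801 to 43674881), mitoferrin-2, fell with ligation in both genotypes. It was at 189.7, 201, 196, 192 and 208 normalized counts in WT intact and 114, 92.2, 104 and 90.6 in WT ligated libraries (log2 -0.98 ± 0.14, adjusted p = 9.09e-06). In BKO it was at 205, 205, 219.6, 226 and 183 in intact and 112, 71.2, 61.3 and 91.4 in ligated libraries (log2 -1.33 ± 0.14, adjusted p = 1.81e-07). No ligated library overlapped the intact ones of its genotype.

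Slc25a37, mitoferrin-1, was lower in BKO intact muscle (87.9 to 139 against 114 to 213 normalized counts, log2 -0.47 ± 0.16, adjusted p = 0.0491), and the ranges overlapped. That call held only when the library left out was WT intact 6, WT ligated 4, BKO intact 5, or BKO ligated 5 or 6 (0.0542 to 0.149 without 1 of the other 13). Its share of the per-kb sum of both mitoferrins was 33.9% ± 5.29 (SD, n = 5) for WT intact muscle and 51.1% ± 2.81 (SD, n = 4) for WT ligated muscle. For BKO it was 26.00% ± 4.54 (SD, n = 5) in the intact limb, against 47.3% ± 10.97 (SD, n = 4) in the ligated limb, with every ligated library above every intact one of its genotype. Slc25a37 itself was not called for ligation in WT (log2 0.05 ± 0.17, 95% interval -0.31 to 0.42, adjusted p = 0.835) or in BKO (0.02 ± 0.17, -0.34 to 0.39, adjusted p = 0.923), while Slc25a28, the other term of the sum, fell in both. The erythroid form is high in blood cells: blood markers summed to 1626 to 2715 in WT intact, 1969 to 2406 in WT ligated, 1978 to 3621 in BKO intact and 1721 to 2027 in BKO ligated libraries. For ligation they were called 0 of 5 times in WT and 2 of 5 times, lower, in BKO, where 25.1% of all genes were lower. The part of blood cells in the share was not tested.

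Slc25a39, a glutathione importer (chromosome 11, 102402985 to 102407946), was higher in BKO intact muscle, at 394, 319, 335, 258 and 269 against 204, 184, 233, 264 and 246 in WT (log2 0.47 ± 0.16, adjusted p = 0.0439), with overlap. It fell with ligation in BKO to 189.9, 113, 161 and 161 (log2 -1.01 ± 0.17, adjusted p = 5.82e-05), without overlap, and stood at 215, 241, 251 and 147 in WT ligated libraries. The intact call ended without any 1 of 7 libraries (WT intact 2, 3 and 4, WT ligated 2, BKO intact 1, 2 and 3; 0.0519 to 0.123), and the interaction (log2 -0.91 ± 0.24, adjusted p = 0.0275) without any 1 of 4 (WT intact 3, WT ligated 2 and 5, BKO ligated 4; 0.0535 to 0.0671). Slc25a40, its paralogue, was called in none of the comparisons.

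Among the carriers related in sequence to uncoupling proteins, Slc25a30 (chromosome 14, 75760117 to 75787037), also a low-count member picked after its values were seen, was lower in BKO intact muscle. Its counts were 43.9, 40.3, 45.3, 40.5 and 33.1 in WT intact and 10.7, 15.8, 11.8, 13.4 and 20.3 in BKO intact libraries, without overlap (log2 -1.46 ± 0.21, adjusted p = 5.37e-05). With ligation it fell in WT to 25.9, 32.5, 19.2 and 21.4 (log2 -0.71 ± 0.23, adjusted p = 0.0166) and was 15.99, 23.3, 28.6 and 18.6 in BKO ligated libraries (log2 0.56 ± 0.23, adjusted p = 0.0492). BKO intact and ligated values overlapped. The BKO call held only when the library left out was WT ligated 4 or 5, BKO intact 5 or BKO ligated 2 (0.0502 to 0.172 without 1 of the other 14). The BKO call also ended without BKO ligated libraries 4 and 5 together. The WT call ended without WT ligated 5 (0.0601) and under scaling to reads of genes not encoded by mitochondrial DNA. The interaction was 1.27 ± 0.32 (adjusted p = 0.0231) and ended without WT ligated 5 (0.0569) or BKO ligated 5 (0.0514). Slc25a27 was called in none of the comparisons.

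The orphan group includes Slc25a34 (ENSMUSG00000040740, chromosome 4, 141618824 to 141623821), whose substrate is not established. Its counts were 85.2, 31.98, 83.8, 70.3 and 116 in WT intact and 107, 235, 190.0, 159 and 153 in BKO intact libraries, which overlapped (log2 1.18 ± 0.26, adjusted p = 0.00272). Ligated libraries had 54.3, 61.02, 47.01 and 58.5 in WT (log2 -0.38 ± 0.27, not passed) and 35.98, 28.2, 38.8 and 49.7 in BKO. The BKO ligated libraries lay below all BKO intact ones (log2 -2.10 ± 0.27, adjusted p = 3.71e-06), the lowest value among the 36 members in that comparison. The interaction was -1.72 ± 0.39 (adjusted p = 0.0136), and its adjusted p was 0.0753 without BKO ligated libraries 4 and 5.

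Slc25a46, an outer membrane protein linked to mitochondrial shape, fell with ligation in both genotypes, in WT from a mean of 466 (range 433 to 499.6) to a mean of 369 (range 315 to 412) (log2 -0.34 ± 0.10, adjusted p = 0.00955) and in BKO from a mean of 514 (range 471 to 549) to a mean of 394 (range 319 to 463) (log2 -0.39 ± 0.10, adjusted p = 0.00283), without overlap. The WT call ended when values were scaled to reads of genes not encoded by mitochondrial DNA. Slc25a45, a low-count member picked after its values were seen, rose with ligation in WT from a mean of 7.15 (range 2.96 to 9.63) to a mean of 16.1 (range 10.4 to 23.9) (log2 1.08 ± 0.35, adjusted p = 0.0179), a call that ended without WT intact 4 (0.0523) or WT ligated 6 (0.078). The Slc25a45 means in BKO were 10.9 in intact and 14.9 in ligated libraries. It thus reached the minimum mean of 10 through its ligated libraries, so its rise with ligation is not independent of the filter. It is 1 of the 13 members called for ligation in WT. Slc25a35, Slc25a47 and Slc25a53 were called in none of the comparisons. Exons of Slc25a46, Slc25a26, Slc25a37, Slc25a23 and Slc25a35 overlap other genes on the opposite strand, and those of Slc25a51 overlap a small RNA on the same strand.

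**Figure D4:**
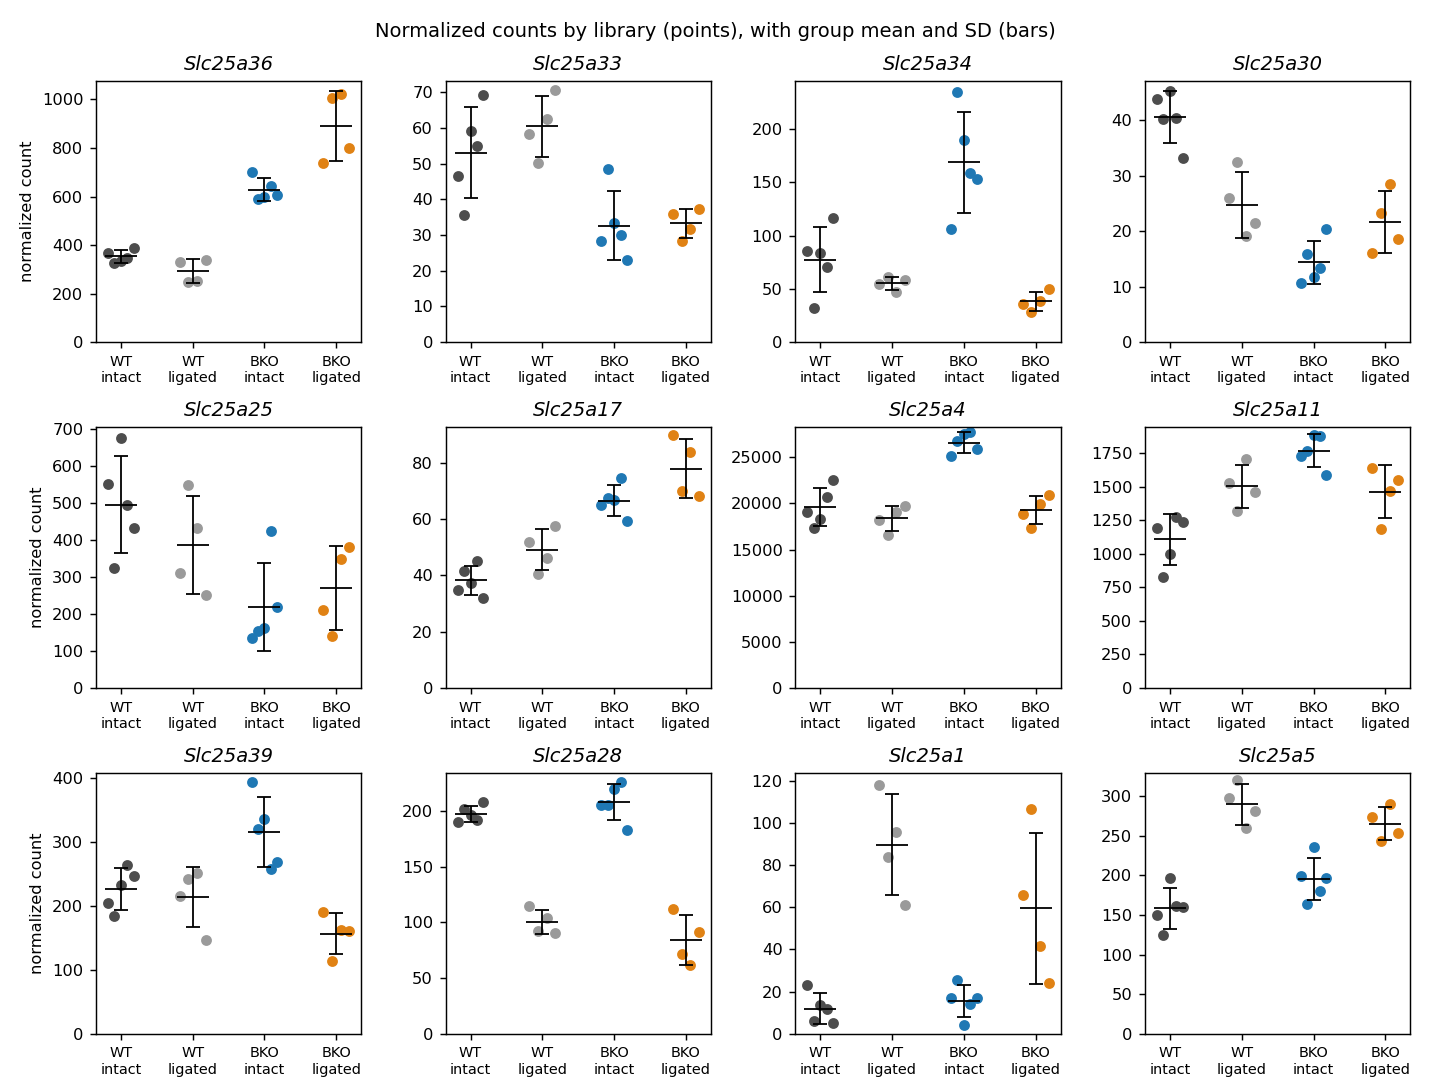
Normalized counts of selected Slc25 members in each library (points), with the group mean and SD, for the 4 groups. Slc25a36 lies higher in BKO than in WT in both limbs, and Slc25a28 lower in ligated than in intact limbs.

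Genes listed as working with the carriers were set beside them. The 17 genes with symbols starting with Atp5 are mostly nuclear subunits of ATP synthase, the partner of Slc25a3 and Slc25a4 in ATP synthesis. Of the 17, 14 were higher in BKO intact muscle and none lower, and 9 had a lower interaction. Among all genes, 8.56% were higher and 9.75% lower in BKO intact muscle, and 2.97% had a lower interaction. Examples in intact muscle are Atp5g1 (log2 0.75 ± 0.11, adjusted p = 6.07e-05), which forms the rotor ring, and the catalytic subunit Atp5b (0.39 ± 0.07, adjusted p = 0.000317). Ligation called 9 of the 17 higher and 2 lower in WT, and 3 higher and 6 lower in BKO. It called 18.7% of all genes higher and 21.1% lower in WT, and 22.1% and 25.1% in BKO. Of 12 carrier-import genes, 3 were higher in BKO intact muscle, and ligation lowered 2 in WT and 6 in BKO. Tomm22, part of the entry gate, was at log2 0.44 ± 0.09 (adjusted p = 0.00174) in intact muscle. The mitochondrial creatine kinase Ckmt2 was higher in BKO intact muscle (log2 0.76 ± 0.15, adjusted p = 0.00121) and lower with ligation in BKO (-0.75 ± 0.16, adjusted p = 0.000742). Of 8 calcium uniporter genes tested of 9 listed, 3 were higher in BKO intact muscle, 1 rose and 1 fell with ligation in WT, and 2 fell in BKO. The ligation counts of the uniporter genes, and that of the import genes in WT, are not above the shares of all genes.

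Carrier-fold genes under other names were split: of 4 tested, 2 were higher in BKO intact muscle, and ligation called 1 higher and 2 lower in each genotype. The muscle uncoupling protein Ucp3 was higher in BKO intact muscle (log2 0.77 ± 0.16, adjusted p = 0.00193) and fell with ligation in WT (-0.67 ± 0.17, adjusted p = 0.00368) and BKO (-1.10 ± 0.17, adjusted p = 2.85e-05). Ucp2 rose in both (1.61 ± 0.27, adjusted p = 6.58e-05, and 1.45 ± 0.27, adjusted p = 0.000153). Among 10 other transport genes, 1 was higher and 2 lower in BKO intact muscle, and 3 were lower in BKO ligated muscle. Ligation called 3 higher and 1 lower in WT and 3 higher and 4 lower in BKO. In BKO ligated muscle 4.68% of all genes were lower, and the other shares of all genes are those given above. The pyruvate carrier subunit Mpc1 was lower in BKO in both limbs (-0.34 ± 0.09, adjusted p = 0.0089 intact, and -0.84 ± 0.10, adjusted p = 4.76e-06 ligated).

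The 7 genes under the minimum were Slc25a14, Slc25a13, Slc25a2, Slc25a21, Slc25a43, Slc25a48 and Slc25a31, with means from 0.10 to 7.20 normalized counts over the 18 libraries, and they were not tested. Slc25a31, the ADP/ATP carrier of germ cells, was the lowest of them.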

How the data were processed

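Total RNA of 18 mouse tibialis anterior muscles was sequenced. Per the labels' protocols, the kit was TruSeq stranded. The submitters' processing notes list RSEM 1.3.3, STAR 2.5.2, Trimmomatic 0.33, DESeq2 and, as build, mm10, with no roles. DESeq2's version, the annotation and the use of strand in counting were not given in the sources used here. A table deposited by the authors holds normalized counts per gene, a signal with no correction for length. Within a tolerance of 0.001, 100% of each library's values came out as whole multiples of 1 step, named reads below. That step lies near 1 in BKO ligated library 2 and WT intact library 6, so it tells less there. Recovered reads gave the depth, and their number limits the precision of low genes. Without molecular identifiers, reads are not independent molecules.

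Rows were matched to symbols and union exon lengths in GENCODE M21 (GRCm38), and 20643 of 20922 had a symbol. Genes with a mean of at least 10 were put on a log2(normalized count + 1) scale and tested by limma 3.58.1 (R 4.3.3), in 1 fit over 4 groups with eBayes and a trend, from which 5 comparisons were drawn. A gene was called at a Benjamini-Hochberg adjusted p under 0.05 over all 12262 genes. Fold changes are on that log2 scale and understate changes of low genes. Errors are the SE of a fold change or the SD over libraries. Since no label ties each sample to its own animal, p-values cover only the spread between these samples, which may be technical.

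The members, role groups, pathway lists and marker lists were chosen with earlier results of these data known. Values were given for called members with a mean of at least 50 (up to 6 higher and 6 lower per comparison), the 5 most abundant members and the isoform pairs. Slc25a1, Slc25a10, Slc25a30 and Slc25a45 were added after their values were seen. 1 member enters the counts and is otherwise not reported here. Alternatives were edgeR 4.0.16 and DESeq2 1.42.0 on recovered reads, other pseudocounts, filters and scalings, a replicate block, fits of the compared groups alone, leaving out 1 library at a time, and leaving out the BKO ligated libraries above 50% mt-Rnr2. The fit was tested on simulated data.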

Additional observations from a re-analysis of the deposited data

Results flagged for a closer look

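Of 112 groups of values of named members, 6 had a library far from the others of its group, where chance at 1 in 20 gives 5.6. Slc25a3 in BKO ligated library 4 stood at 2613 normalized counts, against 3378 to 3478 in the others. Slc25a16 in WT intact library 4 was at 286, against 232 to 244, and in BKO intact library 3 at 266, against 283 to 289. Slc25a26 in BKO ligated library 2 was at 59.97, against 46.0 to 46.6. Slc25a10 in BKO intact library 3 was at 10.8, against 20.02 to 23.7, and in BKO ligated library 6 at 21.3, against 50.05 to 55.2.

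The ligation effect differed between BKO and WT for 8 named members, by limma's interaction term adjusted over all genes tested. The difference was -0.52 for Slc25a12, -0.59 for Slc25a3, -0.74 for Slc25a11, -0.57 for Slc25a51, -0.91 for Slc25a39 and -1.72 for Slc25a34 on the log2 scale. It was 0.78 for Slc25a36 and 1.27 for Slc25a30.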

How the results depend on the processing

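Over the settings other than leaving out 1 library, members called ranged from 9 to 15 for ligation in WT, 10 to 18 for ligation in BKO, 11 to 13 for BKO against WT in intact and 2 to 5 in ligated muscle, and 0 to 11 for the interaction. With edgeR on recovered reads they were 13, 18, 13, 4 and 8, and with DESeq2 12, 17, 13, 4 and 9. Without the BKO ligated libraries above 50% mt-Rnr2, ligation in BKO called 10, ligated muscle 2 and the interaction 0 by limma, with 11 members at an unadjusted p under 0.05. Leaving out 1 library gave 11 to 15, 16 to 19, 11 to 13, 2 to 5 and 5 to 9. The replicate block gave 15, 16, 13, 4 and 5 (main 13, 18, 13, 4 and 8). The shares of all genes called in these alternatives are not given here, so their counts are not results about the members. Over 7 same-numbered pairs within genotypes the correlation of deviations was -0.064 to 0.048, and 1 of 7 ligated libraries correlated best with its own number, so the labels' numbers were not used to pair the samples.

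Scaling to reads of genes not encoded by mitochondrial DNA moved the median of all genes to 0.27, 0.12, 0.07, -0.10 and -0.16. The members split 13 higher and 1 lower, 7 and 11, 10 and 3, 2 and 3, and 2 and 9. Of all genes called, 79.5%, 60.1%, 62.1%, 27.1% and 17.96% were then higher, against 47.0%, 46.9%, 46.7%, 47.0% and 50.6% before. Of 56 calls of named members, 28 passed under every setting, 28 were lost under at least 1, and 0 changed sign. Of 84 values that were not called, 19 passed under at least 1. The causes were not tested, and depth limits the members with few reads most.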
